A study of Mus musculus with 12 samples.

Results

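The 58 genes described here encode the factors that make ribosomes: RNA polymerase I subunits, nucleolar chaperones, the protein cores of snoRNA particles, and assembly factors of the small and large ribosomal subunit. They were taken by name from a fixed list, which was chosen with earlier results of these data known. All 58 were found among the 27179 genes counted in each library. Ribosome production starts in the nucleolus, where RNA polymerase I transcribes the precursor of the ribosomal RNAs. Small nucleolar RNAs (snoRNAs) with their partner proteins guide its methylation and pseudouridylation, and assembly factors fold, cut and package it into a small and a large subunit. The demand for ribosomes is known to be high in dividing cells, leukemic blasts included, and to drop when blood progenitors stop dividing and mature.

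The cells were AML246, a mouse acute myeloid leukemia on a C57BL/6 background that lacks p53 (p53-/-) and carries a hairpin against PU.1 (shPU.1) linked to GFP. PU.1 is the myeloid transcription factor encoded by Spi1. Doxycycline (Dox) shut the hairpin off in leukemic mice, so that endogenous PU.1 was restored over days. GFP-positive cells were sorted from the bone marrow of leukemic recipients, 3 libraries a group: untreated cells from the GFPhigh gate, cells after 2 days of Dox (GFPhigh-mid), after 4 days (GFPmid) and after 6 days (GFPlow). All 12 libraries come from this 1 leukemia. The gate and the day of Dox cannot be told apart, and neither can Dox itself and the loss of the hairpin. The titles call the replicates technical while the design text names triplicate mice, so the p-values measure the spread between these libraries, which may be technical.

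Total counts ran between 4918920 and 7356166 a library, so that 3 counts were worth 0.408 to 0.610 CPM (counts scaled to a common library size), a limit of counting error only. This range uses plain library totals, whereas the levels given below are also scaled by TMM factors. The lowest count of any of the 58 genes in any library was 14 (Gar1, day 6 replicate 1), and all 58 passed the filter on low counts. Replicates of a group varied by 2.73 to 10.5 times counting error, except in the pairs with day 6 replicate 2, where the variance was 50.9 and 43.7 times counting error. That library therefore stood apart from the other day 6 libraries. Without it, a choice of values made after seeing the data, the summed level of the 58 genes at day 6 was 2547 CPM, or 35.8% of the untreated mean, in place of 40.3%, and the day 6 log2 fold change was more negative in all 58 genes, by 1.03 to 1.40 times. All 8 markers of myeloid leukemia cells were detected, with Mpo (myeloperoxidase) at 18015, 12356, 8001 and 4165 CPM on average in untreated, day 2, day 4 and day 6 libraries, while the stem cell marker Cd34 stayed at 1.24 to 2.93 CPM. Spi1 averaged 62.5, 109, 259.8 and 458 CPM and Ptprc, the pan-leukocyte marker CD45, 14.3, 21.6, 277 and 608 CPM over the same order of groups. Markers of erythroid cells summed to 5.83, 3.57, 2.35 and 3.27 CPM over the same order of groups and the stromal and endothelial markers to 106, 106, 90.4 and 23.4 CPM, most of it Cxcl12 and Pecam1, with Col3a1 at 0 in every library. Markers of eosinophils and basophils summed to 50.04, 93.9, 472 and 43.0 CPM, most of the day 4 value being Prg2 and Epx. The replicates of that list were far apart, at 56.2, 879.5 and 478.8 CPM on day 4 and 25.2, 65.8 and 191 CPM on day 2. Those of B cells summed to 35.6, 17.2, 51.8 and 39.3 CPM (mostly Ighm), and the untreated libraries held 85.5, 9.73 and 11.5 CPM. The markers of T and NK cells summed to 55.5, 74.3, 79.6 and 81.5 CPM (mostly Nkg7). The T cell markers among them were near 0 in untreated cells and at low levels at day 6, with Cd8a at 4.08 CPM on day 6 against 0.0944 CPM in untreated cells, Lck at 7.65 against 0.328 CPM, Cd3g at 2.21 against 0.0463 CPM and Cd3d at 1.03 against 0.0463 CPM. Names of the deposited tables carry the genotype Rag1-/-, known for its lack of mature B and T cells, which the labels assign neither to the leukemia nor to the recipients. Megakaryocyte markers summed to 1.51, 1.82, 5.72 and 4.97 CPM. The part of these other cells in the results below was not tested. In bulk libraries, fewer cells of a type and less RNA per cell cannot be told apart.

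The promoters are shown first because CACGTG, the E-box hexamer bound by MYC family proteins, is a known feature of ribosome biogenesis promoters. RefSeq promoter windows of GRCm38.p6 run from 250 bases before to 50 bases after an annotated transcript start, and 55 of them matched 51 of the 58 genes (2 windows each for Noc2l and Rrp1b, 3 for Wdr12); Fbl, Rrp12, Gnl2, Nol6, Npm1, Rrs1 and Bop1 were not matched. The windows of Noc2l, Ddx56, Nat10 and Noc3l, the second one of Rrp1b and 2 of those of Wdr12 lie inside the gene rather than at its outer start. For Grwd1, Ddx10 and some others the annotated transcript start also lies inside the outer end of the gene. A gene is counted once where any of its windows holds a motif. CACGTG, which reads the same on both strands, stood in 11 of the 51 genes. Each of these sites is given with the 30 bases that hold it, 5′ to 3′ on the gene's strand, with the hexamer in capitals.
Grwd1, chr7:45830740-45830769, minus strand: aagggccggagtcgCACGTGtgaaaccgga
Imp4, chr1:34439696-34439725, plus strand: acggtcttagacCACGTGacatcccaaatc
Ltv1, chr10:13193092-13193121, minus strand: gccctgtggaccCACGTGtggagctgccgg
Mybbp1a, chr11:72441347-72441376, plus strand: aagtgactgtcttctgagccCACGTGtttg
Nop2, chr6:125131811-125131840, plus strand: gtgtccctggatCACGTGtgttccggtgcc
Pes1, chr11:3963965-3963994, plus strand: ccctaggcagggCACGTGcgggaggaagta
Tsr1, chr11:74898092-74898121, plus strand: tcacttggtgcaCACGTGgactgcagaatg
Utp18, chr11:93885769-93885798, minus strand: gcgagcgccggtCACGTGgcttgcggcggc
Utp20, chr10:88826765-88826794, minus strand: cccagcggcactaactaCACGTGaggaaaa
Utp4, chr8:106893643-106893672, plus strand: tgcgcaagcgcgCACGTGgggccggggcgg
Wdr43, chr17:71616220-71616249, plus strand: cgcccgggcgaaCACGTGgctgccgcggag

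The share with CACGTG was 21.6% of the 51 genes, 20% of 85 other ribosome biogenesis genes, 11.9% of 9399 tested genes and 8.09% of all 27025 genes with a window in the table. A second hexamer, CCGGAA or its reverse complement TTCCGG, is the core of many ETS family sites. PU.1 belongs to that family, but no motif particular to PU.1 was searched. The second hexamer stood in 27 of the 51 genes (52.9%), against 58.8% of the other ribosome biogenesis genes, 32.8% of tested genes and 16.7% of all genes of the table. Utp18 held both kinds of hexamer in the 250 bases before its start. So did Nop2, which encodes an rRNA methyltransferase of the large subunit. The hexamers of Nop2 do not overlap and are in capitals here.
Nop2 upstream, chr6:125131633-125131882, plus strand: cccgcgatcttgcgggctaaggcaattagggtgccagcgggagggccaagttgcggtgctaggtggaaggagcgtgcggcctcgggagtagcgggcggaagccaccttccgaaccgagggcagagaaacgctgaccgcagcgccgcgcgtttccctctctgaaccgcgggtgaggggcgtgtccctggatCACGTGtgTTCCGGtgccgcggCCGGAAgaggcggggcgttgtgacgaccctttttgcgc

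These matches describe letters in the windows and say nothing of binding. The median log2 fold change at day 6 against untreated was -1.27 in the 11 genes with CACGTG and -1.27 in the 40 without. With CCGGAA or TTCCGG it was -1.23 in 27 genes, and without it -1.33 in 24.

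All 58 genes had less RNA after 6 days of Dox, and the fall had built up over the days. Their summed level was 7115 ± 873 CPM in untreated cells, 6046 ± 238 CPM on day 2, 4516 ± 408 CPM on day 4 and 2869 ± 574 CPM on day 6 (SD, n = 3 each; counts scaled by library size with TMM factors). Set against the untreated mean, these sums were 85.0% at day 2, 63.5% at day 4 and 40.3% at day 6. Read as a share of all counts with no scaling, the 58 genes took between 0.709% and 0.884% of a library in untreated cells, between 0.648% and 0.717% on day 2, between 0.436% and 0.516% on day 4, and between 0.177% and 0.297% on day 6. The ranges of the untreated, day 4 and day 6 groups did not overlap on this scale.

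**Figure D1:**
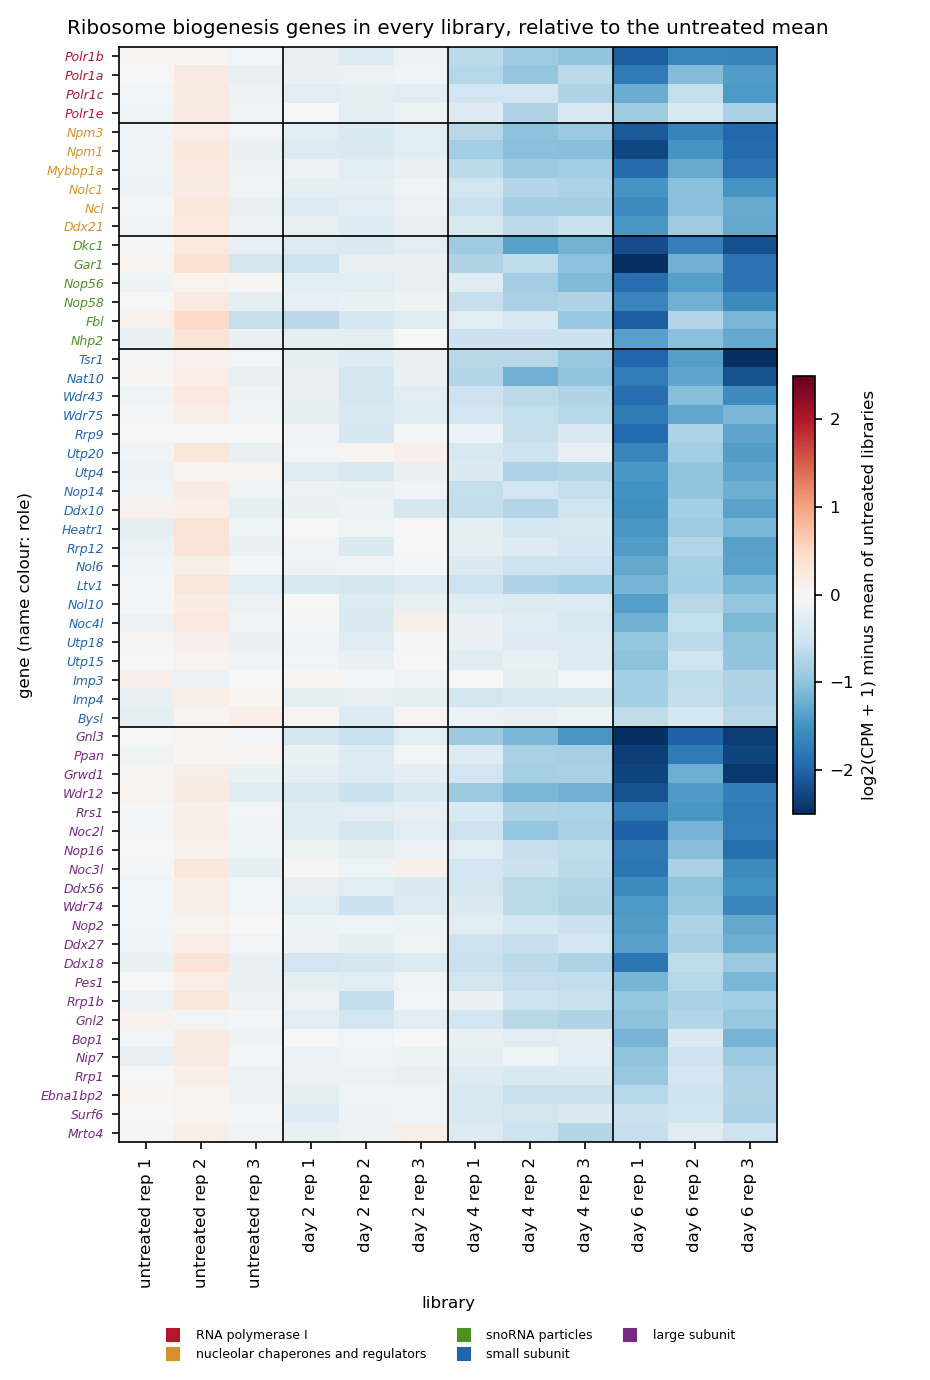
Level of each of the 58 genes (rows, name colour by role) in each of the 12 libraries (columns), as log2(CPM + 1) minus the mean of the 3 untreated libraries, blue for lower and red for higher. The day 6 columns are the darkest blue in most rows, day 6 replicate 2 is paler than the other 2 day 6 columns in 57 of 58 rows, and untreated replicate 2 is the highest untreated column in 52 rows.

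At day 2 the genes leaned downward without passing the test. None of the 58 was called lower or higher than untreated at an adjusted p under 0.05 (edgeR quasi-likelihood test, Benjamini-Hochberg over 12057 genes), where 0.406% of all tested genes were called lower and 1.05% higher. At an unadjusted p under 0.05, 11 were lower and 0 higher, where 6.43% of all tested genes were lower and 7.88% higher, and DESeq2 and limma voom also called 0. The log2 fold change was below 0 in 56 of 58 genes, against 50.6% of all tested genes, and the median was -0.21, against -0.00 for all tested genes. All 3 day 2 libraries lay below all 3 untreated libraries in 28 genes, where 12.5% of tested genes did so. The values ran between -0.56 ± 0.32 (Fbl) and 0.03 (Utp20), and leaving out untreated replicate 2 moved the median to -0.12. Noc3l, at 0.01, and Utp20 turned below 0 when untreated replicate 3 was left out, at -0.10 and -0.06.

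At day 4, 44 of the 58 genes were lower than untreated and 0 were higher, beside 20.2% of all tested genes lower and 22.1% higher. The median log2 fold change was -0.59, and that of all tested genes -0.01. All 3 day 4 libraries lay below the untreated ones in 54 genes, where 29.2% of tested genes did so. Dkc1, Gnl3, Npm1 and Wdr12 were past a 2-fold fall by then, in a comparison where 5.32% of tested genes were called that far. The 14 genes that did not pass had log2 fold changes between -0.60 ± 0.32 (Fbl) and -0.10 (Imp3), and 10 of them belong to the small subunit. Leaving out 1 library at a time, the count stayed between 35 and 52, and 34 of the 44 genes were called in all 12 such fits. Among all tested genes, 1670 to 3040 were lower in these fits, beside 2440 in the main fit. Ddx18, Gar1, Grwd1, Noc3l, Nop16, Nop2, Polr1c, Polr1e, Rrp1 and Wdr74 lost the call in at least 1 of the 12, with adjusted p up to 0.163.

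At day 6 all 58 genes were lower than untreated, beside 32.9% of all tested genes lower and 35% higher. The median log2 fold change was -1.26, and that of all tested genes -0.00. No library of day 6 reached the lowest untreated library in any of the 58 genes, a separation seen in 33.9% of tested genes. The fall was past 2-fold in 43 genes (15.2% of tested genes were called that far), and past 4-fold in Gnl3, Ppan and Dkc1. The share of all tested genes past 4-fold was not counted. Standard errors of the log2 fold change ran between 0.10 and 0.35, and the largest adjusted p was 0.00869 (Mrto4). All 58 calls held with each library left out in turn, and their median moved to -1.44 without day 6 replicate 2. Lower calls over all tested genes ran between 3663 and 4237 in these fits, beside 3966 in the main fit. The comparisons of days 4 and 6 share the 3 untreated libraries, so their values are not independent of each other.

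**Figure D2:**
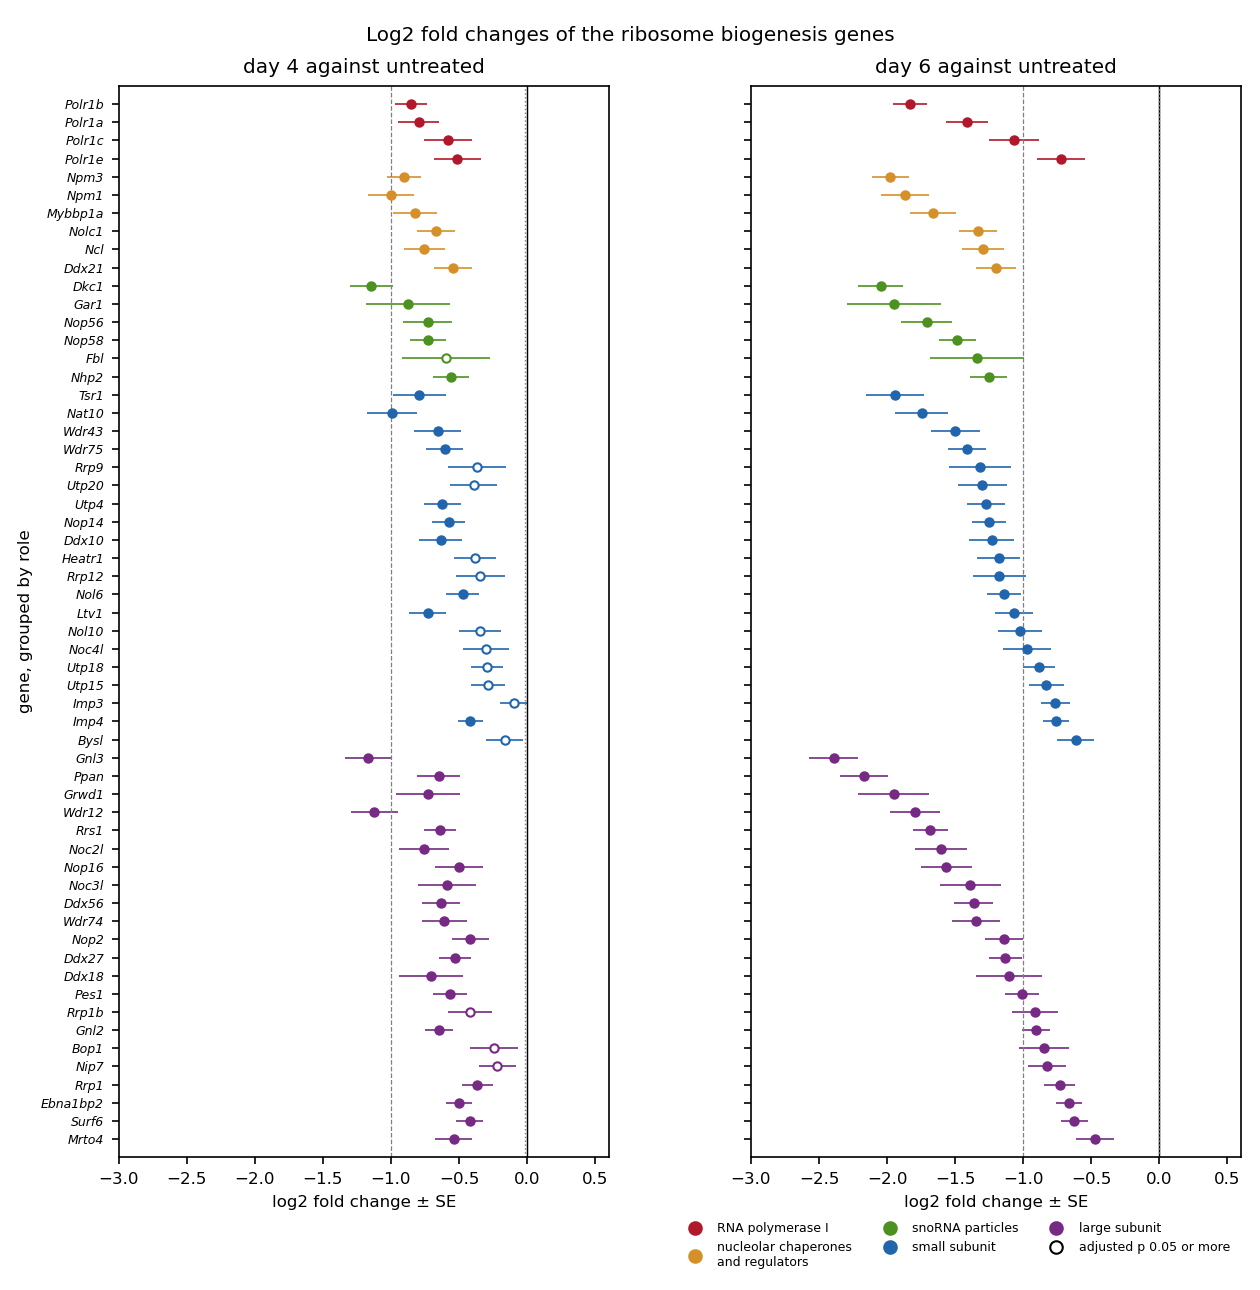
Log2 fold change with its SE (derived from the F statistic of the edgeR test, n = 3 libraries a group) of each of the 58 genes at day 4 (left) and day 6 (right) against untreated, coloured by role, open where the adjusted p is 0.05 or more. The dashed line marks a 2-fold fall and the dotted line the median of all tested genes; every filled and open point lies left of 0, and 43 of 58 lie past the dashed line at day 6.

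The size of these values depends on the scaling. TMM factors were lower at day 6 (0.737, 0.847 and 0.749) than in the untreated libraries (1.15, 1.09 and 1.10). Under upper-quartile scaling the median of all genes at day 6 shifted by -0.25 and with library totals by -0.51. The median of the 58 genes minus the median of all genes was -1.26 with TMM, -1.26 under upper-quartile scaling and -1.25 with library totals, and all 58 were called lower under each of the 3. Over all tested genes at day 6, 3966 were lower and 4224 higher with TMM, 5323 and 3173 under upper-quartile scaling, and 6760 and 2284 with library totals. At day 4 the 2440 lower and 2667 higher genes became 3197 and 2239 under upper-quartile scaling and 3251 and 2091 with library totals.

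**Figure D3:**
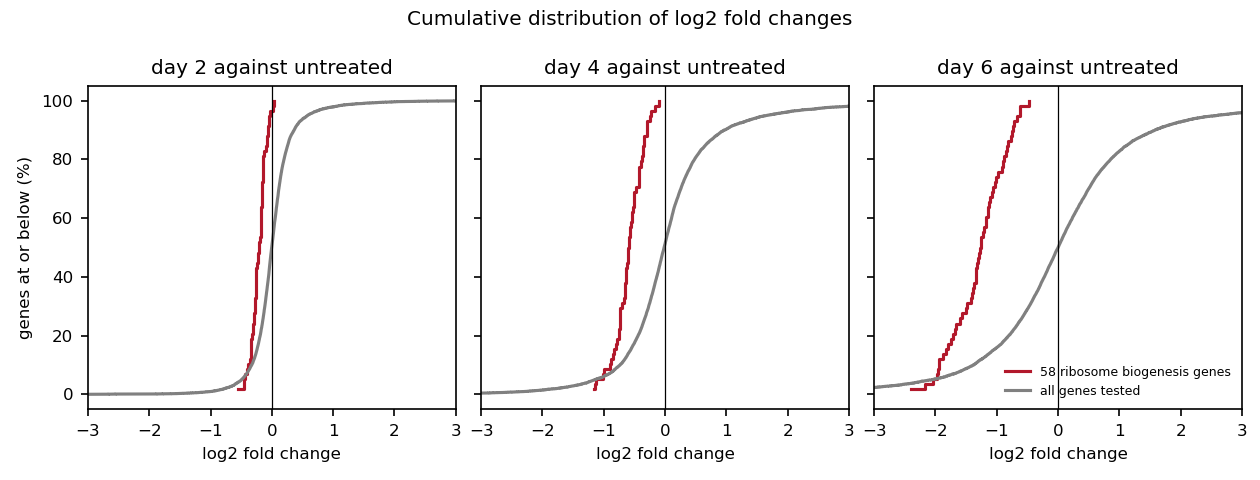
Cumulative share of genes (vertical axis) by log2 fold change against untreated (horizontal axis) at each day, for the 58 ribosome biogenesis genes and for all 12057 tested genes. Above its lowest tail the curve of the 58 genes lies left of the grey curve at all 3 days (the axis is drawn between -3 and 3), with medians of -0.21, -0.59 and -1.26 at days 2, 4 and 6.

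RNA polymerase I transcribes the ribosomal RNA precursor, and all 4 of its listed subunits were lower at day 4 and at day 6 (day 6 median -1.24). Their summed level was 252 ± 26.6 CPM in untreated cells, 220.1 ± 5.71 CPM on day 2, 151 ± 10.9 CPM on day 4 and 97.4 ± 21.5 CPM on day 6. Polr1b, the second largest subunit (Entrez 20017, chromosome 2, 129100970 to 129128060, mm10), stood at 72.9, 72.6 and 67.9 CPM in untreated replicates 1, 2 and 3, at 61.7, 55.8 and 64.4 CPM on day 2, at 44.5, 38.2 and 35.6 CPM on day 4 and at 16.2, 21.8 and 21.6 CPM on day 6. The 4 groups followed each other without overlap, and the log2 fold change at day 6 was -1.83 ± 0.13 (SE; edgeR quasi-likelihood adjusted p = 1.16e-07). Polr1a, the catalytic subunit, fell by 1.41 and Polr1c, which RNA polymerase III shares, fell by 1.07 on the log2 scale. Polr1e, the subunit also known as PAF53 (Entrez 64424, chromosome 4, 45018609 to 45034279), read 19.7, 24.9 and 19.8 CPM in untreated cells, 21.1, 17.9 and 19.4 CPM on day 2, 16.8, 12.1 and 16.3 CPM on day 4 and 11.1, 15.9 and 11.7 CPM on day 6. Its day 6 libraries lay below the untreated ones but overlapped those of day 4, and it had the smallest change of the 4 subunits (-0.72 ± 0.18, edgeR adjusted p = 0.00277).

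Nucleolar chaperones and regulators were lower in all 6 cases at both day 4 and day 6 (day 6 median -1.5). Their summed level was 2540.0 ± 399.6 CPM in untreated cells, 2119 ± 94.3 CPM on day 2, 1489 ± 164 CPM on day 4 and 945 ± 194 CPM on day 6. Ncl, nucleolin, a major nucleolar RNA-binding protein (Entrez 17975, chromosome 1, 86344719 to 86359455), had 1167, 1439 and 1040.3 CPM in untreated cells, 954, 993 and 1092 CPM on day 2, 822, 669.8 and 669.7 CPM on day 4 and 399.6, 585 and 504 CPM on day 6. The day 2 libraries overlapped the untreated ones, those of day 4 and day 6 did not, and the change at day 6 was -1.29 ± 0.15 (edgeR adjusted p = 1.09e-05). Npm1, nucleophosmin, a nucleolar chaperone that is often mutated in human acute myeloid leukemia (Entrez 18148, chromosome 11, 33152498 to 33164142), had 345, 441 and 325 CPM in untreated cells, 291, 284 and 301 CPM on day 2, 201, 178 and 175 CPM on day 4 and 75.4, 132 and 96.1 CPM on day 6. No 2 neighbouring groups of Npm1 overlapped, and the change at day 6 was -1.87 ± 0.17 (edgeR adjusted p = 1.60e-06).

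Npm3, a smaller relative of Npm1 (Entrez 18150, chromosome 19, 45747734 to 45749565), showed the largest fall among the chaperones and regulators. It read 49.4, 58.8 and 49.9 CPM in untreated cells, 42.8, 40.4 and 43.6 CPM on day 2, 32.1, 25.3 and 27.1 CPM on day 4 and 11.5, 15.7 and 12.7 CPM on day 6, with no overlap between neighbouring groups. Its log2 fold change at day 6 was -1.98 ± 0.14 (edgeR adjusted p = 1.23e-07). Mybbp1a, a nucleolar MYB-binding protein, fell by 1.66, Nolc1, a chaperone of snoRNA particles, by 1.33 and the RNA helicase Ddx21 by 1.20 on the log2 scale at day 6.

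The core proteins of snoRNA particles, which modify the ribosomal RNA precursor, lost the largest share of their summed level among the 5 roles. It was 679 ± 102 CPM in untreated cells, 567 ± 24.9 CPM on day 2, 384 ± 49.1 CPM on day 4 and 215 ± 43.9 CPM on day 6, or 31.7% of the untreated mean at day 6. The difference between roles was not tested. At day 6 all 6 genes were lower (median -1.60), and at day 4 all but Fbl. Dkc1, dyskerin, the pseudouridine synthase of H/ACA particles (Entrez 245474, chromosome X, 75095854 to 75109776), had 202, 246 and 183 CPM in untreated cells, 164, 163 and 172 CPM on day 2, 113, 80.8 and 91.8 CPM on day 4 and 44.1, 63.4 and 44.5 CPM on day 6. Neighbouring groups of Dkc1 did not overlap, and the day 6 mean was 24.1% of the untreated mean (log2 fold change -2.05 ± 0.17, edgeR adjusted p = 4.53e-07). Its H/ACA partner Gar1 (Entrez 68147, chromosome 3, 129824912 to 129831407) was at 29.3, 36.6 and 19.8 CPM in untreated cells, 19.0, 23.9 and 24.2 CPM on day 2, 16.0, 17.5 and 13.2 CPM on day 4 and 2.98, 11.6 and 7.02 CPM on day 6. The day 6 libraries of Gar1 were widely spread and all lay below the other groups, with a change of -1.95 ± 0.34 (edgeR adjusted p = 0.000338), or -2.49 without day 6 replicate 2.

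In the box C/D particles, which guide methylation, Nop56 (Entrez 67134, chromosome 2, 130274367 to 130279313) read 108, 126 and 120.2 CPM in untreated cells, 96.8, 96.2 and 102 CPM on day 2, 95, 64.4 and 54.7 CPM on day 4 and 30.9, 44.8 and 32.2 CPM on day 6. Day 4 replicate 1 stayed near the day 2 level, and all 3 day 6 libraries were below every other library (-1.71 ± 0.19, edgeR adjusted p = 7.25e-06). Fbl, fibrillarin, the methyltransferase of these particles (Entrez 14113, chromosome 7, 28168893 to 28179269), was more scattered, at 24.6, 32.1 and 14.9 CPM in untreated cells, 13.8, 16.6 and 18.2 CPM on day 2, 18.9, 17.0 and 11.4 CPM on day 4 and 4.69, 13.3 and 9.75 CPM on day 6. Untreated replicate 3 lay within the range of day 2, so neither day 2 nor day 4 separated from untreated. At day 6 the change was -1.34 ± 0.35 (edgeR adjusted p = 0.00457). Nop58, the partner of Nop56, fell by 1.48 and Nhp2, a further H/ACA protein, by 1.25 on the log2 scale.

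Small-subunit factors passed the test mostly at day 6. Of the 20 genes, 10 were lower at day 4 and 20 at day 6 (medians -0.40 and -1.18), and 19 were lower at day 6 than at day 4. The summed level was 1476 ± 167 CPM in untreated cells, 1300.0 ± 63.3 CPM on day 2, 1045 ± 57.1 CPM on day 4 and 652 ± 127 CPM on day 6. Heatr1, a large scaffold of the early small-subunit particle (Entrez 217995, chromosome 13, 12395375 to 12438893), had 108, 160.3 and 117 CPM in untreated cells, 127, 118 and 128 CPM on day 2, 106, 93.2 and 95.9 CPM on day 4 and 45.2, 67.6 and 56.3 CPM on day 6. Day 2 lay within the untreated range, day 4 just below it (-0.38 ± 0.15, edgeR adjusted p = 0.0640), and day 6 well below it (-1.18 ± 0.16, adjusted p = 3.23e-05). Rrp9, a protein of the U3 snoRNA particle that starts small-subunit assembly (Entrez 27966, chromosome 9, 106477309 to 106485415), was at 32.1, 32.4 and 32.0 CPM in untreated cells, 30, 23.6 and 31.7 CPM on day 2, 28.8, 21.3 and 24.9 CPM on day 4 and 7.67, 18.1 and 12.3 CPM on day 6. The untreated libraries were nearly equal and every later library lay below them, and the call was made at day 6 (-1.32 ± 0.23, edgeR adjusted p = 0.000260).

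Bysl, bystin, which joins the late small-subunit precursor (Entrez 53414, chromosome 17, 47599331 to 47611492), changed least of the small-subunit factors. It read 34.4, 42.3 and 45.3 CPM in untreated cells, 42.6, 31.8 and 42.4 CPM on day 2, 36.4, 35.5 and 36.8 CPM on day 4 and 25.6, 29.4 and 24.6 CPM on day 6. The first 3 groups overlapped and only the day 6 libraries stood below them (-0.61 ± 0.14, edgeR adjusted p = 0.00160). Of its exon bases 9.37% overlap the opposite-strand gene Ccnd3, whose reads cannot be told apart where strand is not counted. At the other end of the group, Tsr1, a factor of the last small-subunit steps, fell by 1.94 at day 6 and shares 32.3% of its exon bases with the opposite-strand gene Srr. Nat10, an rRNA acetyltransferase, fell by 1.75, and the U3-particle and early scaffold proteins Wdr43, Wdr75, Utp20, Utp4, Nop14, Ddx10, Rrp12 and Nol6 by between 1.5 and 1.14. Ltv1, an export and late assembly factor, fell by 1.07, Nol10 by 1.02, Noc4l by 0.97, Utp18 by 0.88, Utp15 by 0.83, and the U3-associated Imp3 and Imp4 by 0.76 each on the log2 scale.

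**Figure D4:**
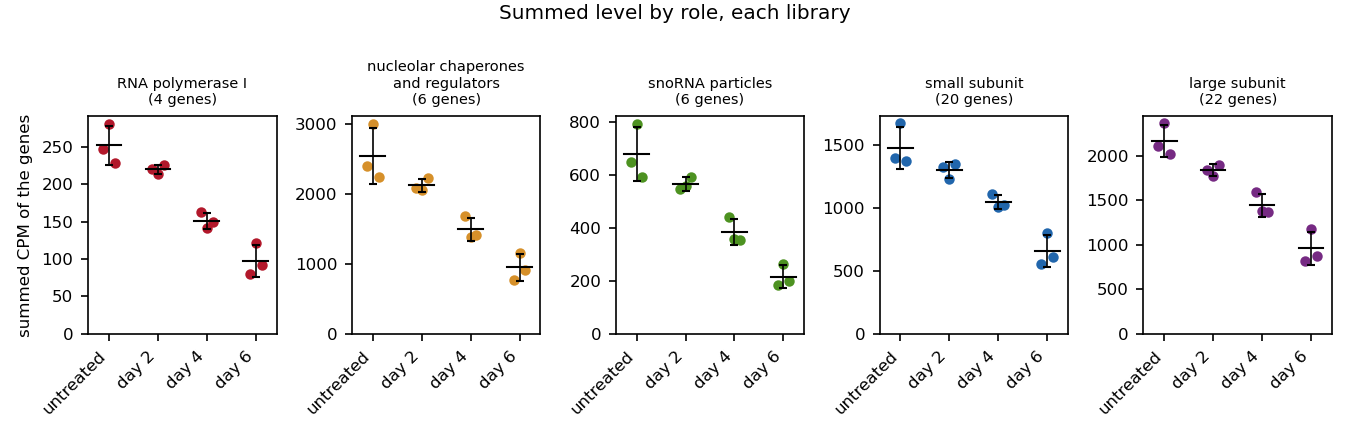
Summed CPM of the genes of each role in every library, by group (untreated, day 2, day 4 and day 6; points are libraries, bars the mean and SD of 3), with a vertical axis of its own in each panel. The day 6 points lie below the untreated points in all 5 panels, and the snoRNA-particle sum is at 31.7% of its untreated mean at day 6, against 44.2% for each of the subunit panels.

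Large-subunit factors held both the largest and the smallest falls of the 58 genes. Of the 22, 19 were lower at day 4 and 22 at day 6 (medians -0.58 and -1.14), and their summed level was 2168 ± 180.4 CPM in untreated cells, 1841 ± 67.1 CPM on day 2, 1446 ± 129 CPM on day 4 and 959 ± 190.0 CPM on day 6. Gnl3, nucleostemin, a nucleolar GTPase of stem and dividing cells (Entrez 30877, chromosome 14, 31012433 to 31019131), fell most of all 58. It had 121, 127 and 117 CPM in untreated cells, 89.3, 82.1 and 99.1 CPM on day 2, 64.4, 54.8 and 43.5 CPM on day 4 and 16.4, 29.4 and 23.0 CPM on day 6. The 4 groups did not overlap, and the day 6 mean was 18.8% of the untreated mean (log2 fold change -2.39 ± 0.18, edgeR adjusted p = 3.16e-07).

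Ppan, an early large-subunit factor (Entrez 235036, chromosome 9, 20888175 to 20892179), fell mainly after day 4. It read 67.4, 74.8 and 76.3 CPM in untreated cells, 65.1, 57.8 and 69.5 CPM on day 2, 57.8, 40.9 and 40.6 CPM on day 4 and 13.4, 20.5 and 14.0 CPM on day 6. The day 6 libraries were far below all others, with a change of -2.17 ± 0.18 against untreated (edgeR adjusted p = 4.73e-07) and of -1.52 ± 0.18 against day 4 (adjusted p = 4.15e-05). Grwd1, whose yeast counterpart Rrb1 is a chaperone of a large-subunit protein (Entrez 101612, chromosome 7, 45825223 to 45830994), had 36, 39.3 and 31.3 CPM in untreated cells, 30.3, 27.8 and 29.8 CPM on day 2, 25.2, 19.5 and 19.6 CPM on day 4 and 6.39, 14.6 and 5.85 CPM on day 6. Day 6 replicate 2 was more than 2-fold above the other 2 day 6 libraries and still below every earlier library (-1.95 ± 0.26, edgeR adjusted p = 3.20e-05). Without that library the change of Grwd1 was -2.54.

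Pes1, Bop1 and Wdr12 form the PeBoW complex of large-subunit assembly, and all 3 were lower at day 6. Pes1 (Entrez 64934, chromosome 11, 3963975 to 3980004) stood at 101, 113 and 89.8 CPM in untreated cells, 85.7, 84.3 and 93.1 CPM on day 2, 73.1, 67.0 and 65.1 CPM on day 4 and 44.5, 61.0 and 45.2 CPM on day 6. Bop1 (Entrez 12181, chromosome 15, 76452988 to 76477249) stood at 87.7, 106 and 84.6 CPM in untreated cells, 92.1, 87.8 and 91.2 CPM on day 2, 81.4, 76.4 and 77.4 CPM on day 4 and 40.7, 72.1 and 40.9 CPM on day 6. Pes1 was below its untreated range by day 4 and Bop1 only slightly so, with day 6 replicate 2 of Bop1 close to the day 4 libraries. The changes at day 6 were -1.01 ± 0.13 for Pes1 (edgeR adjusted p = 1.57e-05) and -0.85 ± 0.18 for Bop1 (adjusted p = 0.00122), and Wdr12 fell by 1.8. Without day 6 replicate 2 the change of Bop1 was -1.19. Nop2 (Entrez 110109, chromosome 6, 125131883 to 125144753), whose promoter is printed above, read 87.2, 98.0 and 90.8 CPM in untreated cells, 84.0, 84.8 and 84.0 CPM on day 2, 76.7, 67.3 and 62.9 CPM on day 4 and 34.1, 53.3 and 37.0 CPM on day 6. Its groups followed each other without overlap, with a change of -1.14 ± 0.14 at day 6 (edgeR adjusted p = 1.41e-05).

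The 4 smallest falls of the large-subunit group were those of Rrp1, Ebna1bp2, Surf6 and Mrto4. Rrp1, a large-subunit rRNA processing factor (Entrez 18114, chromosome 10, 78400362 to 78413043), had 215, 239 and 194 CPM in untreated cells, 193, 194 and 190.3 CPM on day 2, 171, 165 and 166 CPM on day 4 and 111, 154 and 125 CPM on day 6. Ebna1bp2, a nucleolar large-subunit factor (Entrez 69072, chromosome 4, 118620799 to 118627776), had 181, 185 and 158 CPM in untreated cells, 149.6, 165 and 162 CPM on day 2, 132, 119 and 119 CPM on day 4 and 106, 122 and 103 CPM on day 6. For both genes day 6 was below untreated, at -0.73 ± 0.11 for Rrp1 (edgeR adjusted p = 9.85e-05) and -0.67 ± 0.10 for Ebna1bp2 (adjusted p = 5.09e-05), and the day 6 libraries of Ebna1bp2 overlapped those of day 4.

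Surf6, a nucleolar matrix protein (Entrez 20935, chromosome 2, 26890418 to 26902887), was at 65.7, 69.5 and 64.0 CPM in untreated cells, 52.8, 61.1 and 62.4 CPM on day 2, 49.8, 47.9 and 51.2 CPM on day 4 and 45.2, 46.6 and 37.4 CPM on day 6 (day 6 change -0.62 ± 0.10, edgeR adjusted p = 0.000125). Mrto4, a nucleolar relative of a ribosomal stalk protein (Entrez 69902, chromosome 4, 139347440 to 139352576), was at 35.1, 40.3 and 34.3 CPM in untreated cells, 31.9, 33.1 and 40.3 CPM on day 2, 28.6, 25.3 and 21.6 CPM on day 4 and 24.1, 29.5 and 25.3 CPM on day 6. Mrto4 had reached its lowest mean at day 4, and its day 4 and day 6 libraries overlapped (day 6 against untreated -0.47 ± 0.14, edgeR adjusted p = 0.00869). Between these extremes, the day 6 falls on the log2 scale were 1.68 for Rrs1, 1.60 for Noc2l, 1.56 for Nop16, 1.39 for Noc3l, 1.36 for Ddx56, 1.35 for Wdr74, 1.13 for Ddx27, 1.10 for Ddx18, 0.91 for Rrp1b and Gnl2, and 0.82 for Nip7. Of the exon bases of Noc2l 20.9% overlap the opposite-strand gene Samd11.

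The steps between days show when the genes fell. Between day 2 and day 4, 22 of the 58 were lower at day 4 and 0 higher (edgeR adjusted p under 0.05), beside 10.2% of all tested genes lower and 15% higher, with a median of -0.36. None fell past 2-fold in this step, where 2.69% of tested genes were called that far. Between day 4 and day 6, 50 were lower at day 6 and 0 higher, beside 22.6% lower and 23.6% higher of all tested genes, with a median of -0.68. Gar1, Gnl3, Grwd1, Nop16, Npm3, Ppan, Rrs1 and Tsr1 fell past 2-fold in this later step, where 7.5% of tested genes were called that far. The fall was called in both steps for 19 genes, where 5.42% of tested genes were called lower in both. It was called in the later step alone for 31 genes, as for 17.2% of tested genes. It was called in the earlier step alone for Ebna1bp2, Gnl2 and Mrto4 (4.79% of tested genes) and in neither for Ddx18, Fbl, Ltv1, Polr1e and Surf6 (72.6% of tested genes). Group means fell at every step in 55 genes, and the later step was the more negative one in 52, a difference that was not tested. Neither count was made over all tested genes, so no general share can be set beside them. By day 4 the median gene had made 45.9% of its day 6 log2 fall, with a range from 13.0% (Imp3) to 115% (Mrto4). The 2 steps share the day 4 libraries.

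**Figure D5:**
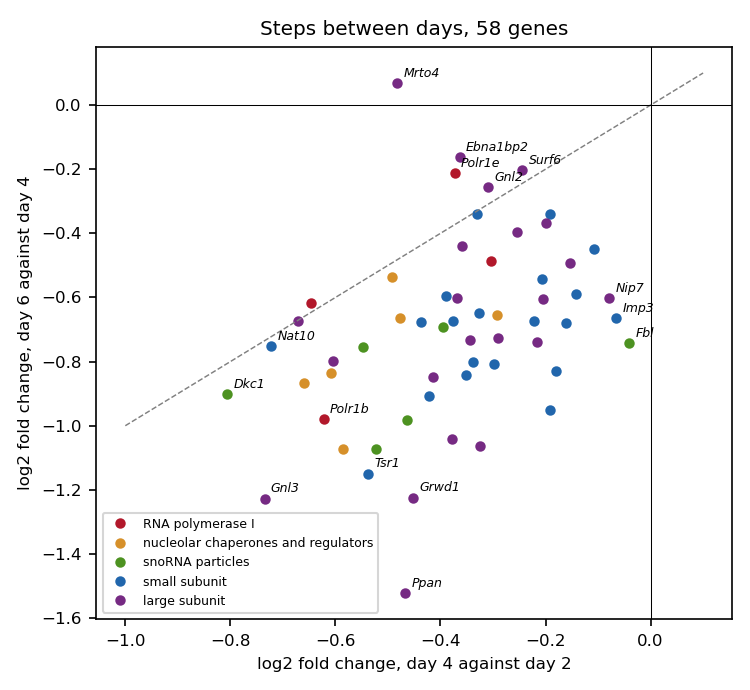
Log2 fold change of each of the 58 genes in the step of day 4 against day 2 (horizontal axis) and of day 6 against day 4 (vertical axis), coloured by role. Below the dashed line of equal steps lie 52 of the 58 points, and Mrto4 alone lies above 0 on the vertical axis, at 0.07, but below 0 under upper-quartile scaling and under library totals.

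Imp3 and Mrto4 mark the range of timing. Imp3, chosen here after its values were seen, averaged 46.9 ± 4.37 CPM in untreated cells, 45.8 ± 2.53 CPM on day 2, 43.8 ± 3.62 CPM on day 4 and 27.6 ± 2.26 CPM on day 6. The count for the earlier step rests on single libraries: leaving out day 2 replicates 1, 2 and 3 in turn gave 11, 13 and 9 genes, leaving out day 4 replicates 2 and 3 gave 6 each time, and leaving out day 6 replicate 2 gave 36. The lower genes among all tested moved too. In the same order of fits they numbered 716, 824, 722, 581, 621 and 1882 of 12223 to 12271, beside 1230 of 12057 in the main fit. Day 6 replicate 2 is in neither group of this step, and the cause of the move was not tested. Only Dkc1, Gnl3, Npm3, Polr1a and Polr1b kept the lower call of the earlier step with each library left out in turn. A fit of the day 2 and day 4 libraries alone called 43, beside 2002 of 11632 tested genes. In the later step 40 of the 50 genes kept the call with each library left out, and the median moved to -0.88 without day 6 replicate 2. Lower calls over all tested genes ran between 1988 and 3431 in this step with a library left out, beside 2727 in the main fit. Mrto4, at 0.07 ± 0.14 between day 4 and day 6, turned below 0 under upper-quartile scaling (-0.087) and under library totals (-0.32).

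The genes differed widely in level, and the order changed with the days. Per length (RPKM, counts per kilobase of gene length scaled like the CPM), Npm1 was the highest in untreated cells at 216 ± 36.1 RPKM, followed by Ncl at 147, Noc2l at 119, Rrp1 at 108, Nop58 at 104 and Mybbp1a at 103 RPKM, and Polr1e was the lowest at 7.29 RPKM. At day 6 the highest levels were those of Rrp1 at 64.7, Ncl at 60.1 and Npm1 at 58.8 RPKM. Gnl3 was in place 10 of 58 in untreated cells, at 64.6 RPKM, and in place 31 at day 6, at 12.2 RPKM. This order rests on the gene lengths of the deposited data, such as 8257 bases for Ncl and 1718 bases for Npm1. Whether these lengths match the transcripts present in the cells was not checked. In CPM, which uses no length, Ncl lay above Npm1 in every library.

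Within 8 of the 58 genes (Ncl, Nop56, Nop58, Dkc1, Wdr43, Tsr1, Ppan and Gnl3) lie 23 annotated snoRNA genes, which encode the RNAs that the particles above carry. These 8 hosts had day 6 log2 fold changes between -2.39 and -1.29 (median -1.82), and the 50 genes without a snoRNA a median of -1.19, a difference that was not tested. Among the 203 other tested protein-coding genes that hold a snoRNA gene, 99 were lower at day 6, or 48.8%, with a median of -0.26. A further 104 genes of ribosome production, from RNA polymerase I factors to late export and exosome proteins, were lower in part at day 4 and mostly at day 6. At day 2, 0 were called (21 lower and 0 higher at an unadjusted p under 0.05, beside 6.43% and 7.88% of all tested genes). At day 4, 49 were lower and 1 higher (median -0.31), beside 20.2% lower and 22.1% higher of all tested genes. At day 6, 82 were lower and 3 higher (median -0.67), beside 32.9% lower and 35% higher.

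Among these 104 genes the largest falls at day 6 were those of Rcl1, a factor of small-subunit rRNA processing, Nob1, which makes the last small-subunit cut, Pwp2, an early scaffold protein, and Znhit6, an assembly factor of box C/D particles. Rcl1 had 10.6, 19.3 and 9.75 CPM on day 6, against 60.9, 61.0 and 58.7 CPM in untreated cells (log2 fold change -2.16 ± 0.24, edgeR adjusted p = 7.61e-06). Nob1, Pwp2 and Znhit6 changed by -1.76, -1.75 and -1.75. The 3 genes that were higher were Riok3, a kinase bound to small-subunit precursors, Taf1b, part of the RNA polymerase I promoter factor, and Utp3. Riok3 had 399, 288 and 403 CPM on day 6, against 159.6, 146 and 151 CPM in untreated cells (1.25 ± 0.12, edgeR adjusted p = 1.90e-06). Taf1b rose by 0.45 and Utp3 by 0.39 on the log2 scale.

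Rrn3 and Ubtf, regulators of RNA polymerase I, were both lower at day 6. Rrn3, which recruits the polymerase to rRNA genes, averaged 42.5 ± 9.77 CPM on day 6, against 67.9 ± 4.06 CPM in untreated cells (-0.67 ± 0.14, edgeR adjusted p = 0.000883). Ubtf, the architectural factor of active rRNA genes, averaged 200.1 ± 5.75 CPM on day 6, against 253 ± 15.4 CPM in untreated cells (-0.34 ± 0.08, adjusted p = 0.00306). The differences between these genes were not tested. Myc, a known activator of ribosome biogenesis genes, averaged 277 ± 41.3 CPM in untreated cells, 198 ± 29.2 CPM on day 2, 111 ± 29.6 CPM on day 4 and 35.0 ± 13.3 CPM on day 6 (day 6 change -2.97 ± 0.27, edgeR adjusted p = 2.38e-06). A link between the level of Myc and that of the ribosome biogenesis genes was not tested.

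Near-identical copies limit some of these levels. Transcripts of Ddx18, Ddx21, Fbl, Imp3, Mrto4, Nop56, Npm1, Npm3, Pes1 and Wdr12 match a transcript of another annotated gene, mostly a processed pseudogene, at 95% identity or more over at least 300 bases, so that reads could be split between them or lost. Exons of 21 of the 58 genes overlap a gene on the opposite strand, over more than 5% of their exon bases in Npm3, Nop14, Bysl, Tsr1 and Noc2l.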

How the data were processed

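RNA of 12 bulk libraries was sequenced, and the deposited files hold raw read counts per Entrez gene, which the authors left unnormalised, with a gene length in bases (per the file headers). The submitters' processing notes list mm10, limma 3.22.0, edgeR 3.8.2, featureCounts and CASAVA 1.8.2 with no step assigned. Neither aligner nor strand setting is given in the sources used here. Symbols came from RefSeq GRCm38.p6 (25275 of 27179 IDs matched); overlaps, copies and snoRNA genes came from GENCODE vM21 annotation, searched with BLAST 2.17.0.

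In R 4.3.3 with edgeR 4.0.16, filterByExpr kept 12057 genes, TMM factors were computed, and the 12 libraries were fitted together by group (robust glmQLFit, 8 residual degrees of freedom, biological coefficient of variation 14.3%). Quasi-likelihood tests, two-sided in each case, were adjusted over all 12057 genes and called at 0.05. Levels are TMM-scaled CPM, mean ± SD. The SE of a log2 fold change is not an output of this test. It was derived as the absolute log2 fold change divided by the square root of the F statistic. On simulated data for day 6 (11894 genes), 39.4% of planted 1.5-fold, 71.2% of 2-fold and 90.8% of 4-fold changes were recovered, 7 of 11697 unchanged genes were called, and 0 without planted changes. The simulation gave every group the same spread around the mean level of all 12 libraries, and it changed few genes. It holds no library that stands apart as day 6 replicate 2 does, so it cannot give the error rate of the real comparison.

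The genes, lists and tests were chosen with earlier results of these data known. Values of every library are given for 13 genes chosen for their role and the 6 largest and 6 smallest changes at day 6. Alternatives were DESeq2 1.42.0, limma 3.58.1 (voom), RLE, upper-quartile and library-total scaling, no filter, a filter of 5 CPM in 3 libraries, a replicate block, fits of only the groups compared, and leaving out each library.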

Additional observations from a re-analysis of the deposited data

How the results depend on the processing

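The 58 lower calls at day 6 against untreated held under all alternatives run, and no gene of the 58 was called higher in any comparison under any of them. At day 2, 1 gene was called lower when only the groups compared were fitted, and 0 to 1 with a library left out (1 without day 6 replicate 2). Of all tested genes, 171 of 11577 were lower at day 2 when only the groups compared were fitted. Without day 6 replicate 2 it was 225 of 12238, beside 49 of 12057 in the main fit. The day 6 median of -1.26 became -1.51 under upper-quartile scaling and -1.77 with library totals, and lay between -1.44 and -1.11 with a library left out. The 22 lower calls at day 4 against day 2 became 43 when only the groups compared were fitted and 6 to 36 with a library left out. Over all tested genes the 1230 lower calls became 2002 and 581 to 1882 in the same fits. The median of day 6 against day 4 (-0.68) became -1.07 with library totals and lay between -0.88 and -0.60 with a library left out. Single values that changed sign were small. With a library left out, Utp20 lay between -0.062 and 0.19 and Noc3l between -0.10 and 0.18 at day 2, Fbl between -0.19 and 0.15 and Imp3 between -0.12 and 0.0065 at day 4 against day 2, and Mrto4 between -0.034 and 0.17 at day 6 against day 4; Mrto4 was -0.087 under upper-quartile scaling and -0.32 under library totals. The cause of these changes was not tested. With the replicate number as a block, 0, 44 and 58 genes were lower at days 2, 4 and 6 and 20 and 49 in the 2 steps, so no count moved by over 1.5 times. Of all tested genes, 39, 2315 and 3922 were lower at days 2, 4 and 6 with this block, and 1074 and 2680 in the 2 steps. No pairing by number was seen: residuals of libraries with the same number correlated at 0.01 on average over 18 pairs (-0.17 to 0.29), and 4 of 12 libraries correlated best with their own number. With so few libraries a group this check cannot exclude pairing, and the labels do not say whether a number links libraries. With library totals the median of all genes shifted by -0.12 at day 4, -0.14 between days 2 and 4 and -0.40 between days 4 and 6. In the 2 steps the 1230 lower and 1812 higher genes of all tested became 1897 and 1479 under upper-quartile scaling and 2311 and 1251 with library totals, and the 2727 and 2851 became 3949 and 2087, and 6263 and 1331. Depth limits the lowest genes most, such as Gar1 with 14 counts in 1 library.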
